A study of Mus musculus with 20 samples.

Results

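The data describe 10 genes that the tumour suppressor p53 is known to induce and that act mainly in growth arrest, antioxidant defence and feedback on p53 itself: Cdkn1a, Ccng1, Btg2, Plk2, Phlda3, Sesn1, Sesn2, Trp53inp1, Mdm2 and Ppm1d. They were chosen by name from knowledge of the pathway, with earlier results of these data known, so counts of members called describe the list and do not test it. All 10 were measured among 18193 genes that had a probe set of their own. Between them they carried 23 probe sets, and each gene is described by its brightest one, with the others as a check. RNA came from VE-cadherin+ cells of the bone marrow, labelled as endothelial, and was hybridised to 20 Affymetrix arrays of 1 colour, with cells taken from adult C57/Bl6 mice aged 8 to 10 weeks. Of the 4 groups of 5 arrays, 3 came from mice 6 hours, 24 hours and 14 days after total body irradiation with 5 Gy, and 1 came from non-irradiated mice. Replicates are labelled biological, with no word on whether each is 1 animal or a pool, so p-values measure the spread between these samples. The labels give no genetic modification, and the 3 irradiated groups share the 1 non-irradiated group as their control.

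In an unstressed cell p53 is made and destroyed continuously, because Mdm2, its ubiquitin ligase, marks it for the proteasome. DNA breaks switch on kinases that free p53 from Mdm2, and p53 then binds a paired motif in the DNA and raises transcription of its targets. Some targets stop the cell cycle or restrain growth signalling, and others, Mdm2 and the phosphatase Ppm1d among them, end the response. In endothelial cells, which line the marrow sinusoids and support blood formation, radiation is a strong trigger of this pathway.

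The cell type label could be checked against 16 endothelial markers, none of which was at or under background on every array of a group. The sum of their signals was 60060 to 67050 on the 6 hour arrays, 30310 to 31830 on the 24 hour arrays, 11610 to 13080 on the day 14 arrays, and 18850 to 21130 on the non-irradiated arrays, with no overlap between groups. Markers of blood cells, and of stromal cells and osteoblasts, were present in every group. Over 8 stromal and osteoblast markers the sum was 95090 to 117300 at 6 hours, and 84050 to 93900 without irradiation. It was 77580 to 97560 at 24 hours and 66800 to 80190 at day 14. The sum over 9 granulocyte markers was 85260 to 105100 at 6 hours and 113600 to 130400 without irradiation. Against non-irradiated arrays, markers of the red cell lineage moved the other way from endothelial ones. The sum over 9 erythroid markers was 5236 to 9491 at 6 hours, 2160 to 2855 at 24 hours and 56670 to 70030 at day 14, and 46140 to 49630 without irradiation. From 6 to 24 hours the endothelial and erythroid sums both fell. In such bulk samples fewer cells of a type and less RNA per cell cannot be told apart. Arrays of the 6 hour group resembled each other less (median correlation with the group's other arrays 0.865 to 0.872) than those of the other groups (0.924 to 0.947). The mean log2 signal of the hybridization controls was 12.66 to 13.04 at 6 hours, 12.01 to 12.36 at 24 hours, 11.95 to 12.38 at day 14 and 12.66 to 12.87 without irradiation. The log2 difference between the 3′ and 5′ probe sets of Gapdh, a sign of RNA quality, was 1.26 to 2.03 at 6 hours, 0.715 to 0.863 at 24 hours and 0.752 to 1.04 at day 14, and 1.28 to 1.36 without irradiation. In both measures the 24 hour and day 14 arrays lay below the non-irradiated ones, and the part of either in the results was not tested.

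At 6 hours after irradiation 9 of the 10 genes rose and 1 fell, by limma with Benjamini-Hochberg adjustment over all genes at 0.05. Over all genes tested 12.9% rose and 14.5% fell. At 24 hours 7 rose, 1 fell and 2 did not pass the test, where 15.7% of all genes rose and 13.8% fell. At day 14 4 were called higher and 2 lower, where 9.47% of all genes rose and 13% fell. The 5 irradiated arrays lay wholly above the 5 non-irradiated ones in 9 members at 6 hours, 5 at 24 hours and 4 at day 14 (7.59%, 15.1% and 11.4% of all genes), and wholly below them in 0, 1 and 1 (8.05%, 12.9% and 11.6%). The median log2 change of the 10 genes was 1.70 at 6 hours, 0.84 at 24 hours and 0.31 at day 14, beside -0.02, -0.07 and -0.18 over all genes. Of all called genes 47.0%, 53.2% and 42.2% were higher at the 3 times. With each array centred on its median those shares were 68.6%, 81.3% and 94.7%, and with quantile normalization 51.6%, 60.8% and 61.1%, so directions of small changes depend on the scaling, at day 14 above all. The members' rise was widest and largest at 6 hours. All 10 genes passed the F test over the 4 groups, as did 55.1% of all genes, and Cdkn1a ranked 4 by p among the 18193.

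**Figure D1:**
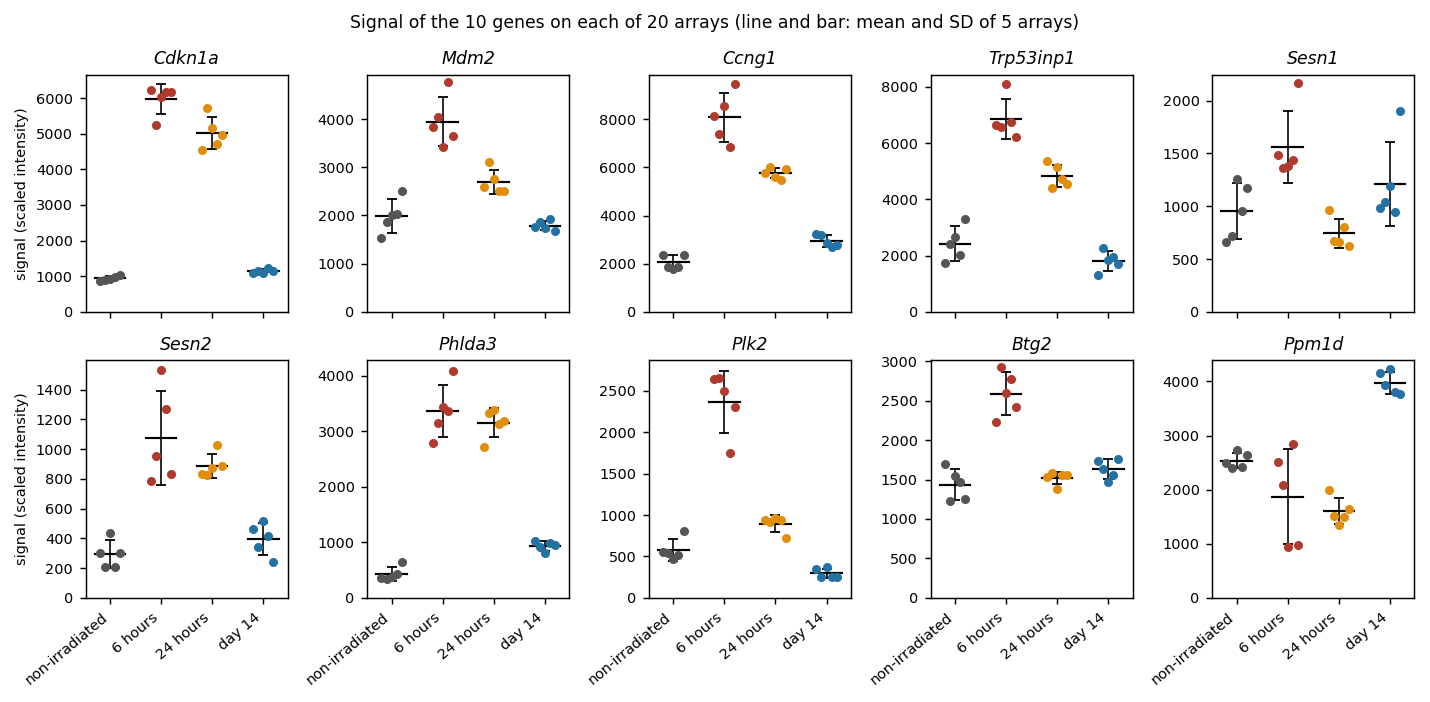
Signal of the 10 genes (vertical axes, scaled intensity on a linear scale from 0) on each of 20 arrays, by group (horizontal axis: non-irradiated, 6 hours, 24 hours and day 14). Points are arrays, and the line and bar give the mean and SD of 5 arrays. In 9 panels the highest mean lies at 6 hours, and in the panel of Ppm1d it lies at day 14.

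Cdkn1a encodes p21, the inhibitor of cyclin-dependent kinases through which p53 halts the cell cycle. Its 5 arrays at 6 hours read 6232, 5236, 6029.6, 6176 and 6169, against 871, 906, 923, 974 and 1043 in non-irradiated mice. At 24 hours they read 4547, 5716, 5162, 4704 and 4956, and at day 14 they read 1083, 1157, 1082, 1243 and 1142. All 5 arrays of each irradiated group lay above all 5 non-irradiated arrays, by a wide margin at 6 and 24 hours and by a narrow one at day 14. The log2 change was 2.66 ± 0.10 at 6 hours (limma SE, adjusted p = 2.74e-16), a 6.32-fold rise, and 2.41 ± 0.10 at 24 hours (adjusted p = 8.22e-16). It ranked 60 of 18193 genes by its change at 6 hours. Between 24 and 6 hours the difference of -0.25 ± 0.10 missed the threshold (limma adjusted p = 0.059, 95% interval -0.45 to -0.05), and the log2 change of -2.13 ± 0.10 between day 14 and 24 hours passed it (adjusted p = 4.81e-15).

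At day 14 Cdkn1a remained 0.28 ± 0.10 higher on the log2 scale, 1.21-fold (limma adjusted p = 0.040). That call was lost when any of day 14 replicates 2, 4 and 5 or non-irradiated replicates 1, 2 and 3 was left out, with values of 0.24 to 0.27 and adjusted p-values of 0.059 to 0.10. The gene's other probe set gave 3.09 ± 0.14 at 6 hours and 2.26 ± 0.14 at 24 hours, but -0.17 ± 0.14 at day 14 (limma adjusted p = 0.41 among 34945 probe sets), and its log2 change of -0.83 ± 0.14 between 24 and 6 hours was called (adjusted p = 1.07e-04). So the rise at 6 and 24 hours was seen by both probe sets and the residue at day 14 by 1.

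Ccng1 encodes cyclin G1, a p53 target that recruits a phosphatase to Mdm2. Its arrays read 8120.4, 7385, 8530.3, 6863 and 9467 at 6 hours, against 2379.8, 1863, 1798, 1872 and 2370.1 without irradiation. They read 5786, 6016, 5588, 5485 and 5910.4 at 24 hours and 3224, 3188, 2859.8, 2680.3 and 2785 at day 14. The groups did not overlap at all, and the level stepped down at each later time. Log2 changes were 1.97 ± 0.10 at 6 hours, 1.495 ± 0.10 at 24 hours and 0.53 ± 0.10 at day 14 (limma adjusted p = 7.51e-14, 1.04e-11 and 4.85e-04). Its other probe sets gave larger values in the same direction, 2.46 and 2.42 at 6 hours, 1.79 and 2.08 at 24 hours, and 0.72 and 0.88 at day 14. The log2 change of -0.48 ± 0.10 between 24 and 6 hours passed the test (limma adjusted p = 8.31e-04), though with 1 of the other probe sets it was -0.33 (adjusted p = 0.19).

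Cdkn1a and Ccng1 are also the members whose promoter windows come closest to the p53 full-site consensus, which joins a palindromic motif of 10 bases to a copy of itself, searched with no spacer and therefore the same on both strands. The windows are those of RefSeq on GRCm38.p6, from 250 bases before to 50 bases after each annotated start, and 9 of the 10 genes had one, with 11 windows in all. Trp53inp1 had none. The windows of both genes are printed because each holds 20 bases in a row, in capitals, that match the consensus at 19 positions.
Cdkn1a, chr17:29090729-29091028, plus strand: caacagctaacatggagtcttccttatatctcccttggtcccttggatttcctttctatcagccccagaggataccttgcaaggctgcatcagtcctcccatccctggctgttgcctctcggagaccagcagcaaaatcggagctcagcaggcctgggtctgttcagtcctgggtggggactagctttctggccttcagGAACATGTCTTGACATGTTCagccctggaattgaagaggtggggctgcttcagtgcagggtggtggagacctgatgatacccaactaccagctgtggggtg
Ccng1, chr11:40755237-40755536, minus strand: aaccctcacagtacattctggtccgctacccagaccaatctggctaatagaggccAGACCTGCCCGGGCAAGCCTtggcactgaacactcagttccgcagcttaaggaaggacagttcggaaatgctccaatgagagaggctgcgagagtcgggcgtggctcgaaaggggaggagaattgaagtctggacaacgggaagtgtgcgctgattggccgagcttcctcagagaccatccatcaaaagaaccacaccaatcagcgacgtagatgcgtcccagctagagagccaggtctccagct
Counted from the 5′ end of the capitals, the base that departs from the consensus is number 11 in Cdkn1a and number 5 in Ccng1. The match begins 51 bases before the start in Cdkn1a and 195 bases before it in Ccng1. A match this close was found in 29 of 32851 RefSeq windows, 0.0883%. The best match in the other members' windows had 3 mismatches in Sesn1, 4 in Btg2 and Ppm1d, and 5 in Mdm2, Sesn2, Phlda3 and Plk2, and 76.6% of all windows held a match with 5 mismatches or fewer. The second start of Cdkn1a, further downstream, had 5. These are matches of letters in a short window, with nothing measured about binding.

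Btg2 is an antiproliferative protein that slows the cell cycle at its G1 checkpoint and promotes messenger RNA decay. It read 2233, 2926, 2592, 2782 and 2416 at 6 hours, against 1697, 1224, 1549, 1466 and 1247 without irradiation. At 24 hours it read 1533, 1579, 1377, 1554 and 1556, and at day 14 it read 1741, 1635, 1471, 1553 and 1765. Only the 6 hour arrays stood clear of the rest, so its rise was short. The log2 change was 0.85 ± 0.12 at 6 hours (limma adjusted p = 2.35e-06), and it was 0.09 ± 0.12 at 24 hours and 0.19 ± 0.12 at day 14, neither past the threshold. The log2 change of -0.76 ± 0.12 between 24 and 6 hours passed (limma adjusted p = 2.01e-05). The other probe set gave 0.93 at 6 hours, -0.03 at 24 hours and -0.36 at day 14.

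Plk2 is a polo-like kinase of G1 and S phase. Its arrays read 2640.5, 2656, 2497, 1749.6 and 2304 at 6 hours, against 555, 539, 473, 519 and 809.7 without irradiation. They read 938, 921, 965, 935 and 721 at 24 hours and 345, 253, 372, 249.9 and 251 at day 14. Its level was highest at 6 hours and lowest at day 14, and the day 14 arrays all lay under the non-irradiated ones. Log2 changes were 2.04 ± 0.18 at 6 hours (limma adjusted p = 1.81e-09), 0.65 ± 0.18 at 24 hours (adjusted p = 6.72e-03, with overlapping groups) and -0.97 ± 0.18 at day 14 (adjusted p = 3.34e-04). Between day 14 and 6 hours it fell by 3.01 ± 0.18, further than the brightest probe set of any other member, while the other probe set of Cdkn1a fell by 3.26 ± 0.14. Its second probe set was not above background on any of the 20 arrays and gives no fold.

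There were 3 members that share another sequence, chosen after looking at the windows and shown for that reason only. The palindrome TGACGTCA, the cAMP response element, reads the same on both strands and occurs once in the windows of Plk2, Btg2 and Ppm1d, in capitals here with 12 bases on each side. In none of them does it overlap the best match to the p53 consensus.
Plk2, chr13:110394794-110395093, plus strand: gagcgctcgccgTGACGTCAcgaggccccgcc
Btg2, chr1:134079106-134079405, minus strand: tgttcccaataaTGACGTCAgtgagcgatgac
Ppm1d, chr11:85311004-85311303, plus strand: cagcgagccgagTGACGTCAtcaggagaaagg
It lies 62 bases before the start in Plk2, 166 in Btg2 and 85 in Ppm1d, and 1.79% of all windows hold it. Among the brightest probe sets, those of Plk2 and Btg2 fell most between 6 and 24 hours apart from that of Sesn1, whose windows lack the sequence. For Ppm1d the brightest probe set gave -0.09 ± 0.22 there and the other one -0.90 ± 0.23 (limma adjusted p = 6.27e-03). The other probe set of Cdkn1a, whose windows also lack it, gave -0.83 ± 0.14. Of 12 immediate early genes, a class that responds fast to stimuli, 11 rose at 6 hours (12.9% of all genes). At 24 hours 1 of the 12 rose and 5 were lower than without irradiation (15.7% and 13.8% of all genes). Among them Ier3, an early stress gene, rose by 1.86 ± 0.12 at 6 hours (limma adjusted p = 4.00e-12). The part of the sequence in any of these changes was not tested.

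Phlda3 binds membrane phospholipids and restrains the kinase Akt, which it competes with. It read 2791, 3146, 3429, 3361 and 4083 at 6 hours, against 349, 339, 373, 436 and 641 in non-irradiated mice. It read 2721, 3331, 3382, 3124 and 3177 at 24 hours and 1018, 916, 801, 994 and 944 at day 14. The 6 hour and 24 hour arrays overlapped each other, and every irradiated array exceeded every non-irradiated one. Among the brightest probe sets it had the largest change of the 10 genes at each time, with log2 changes of 3.00 ± 0.15, 2.91 ± 0.15 and 1.16 ± 0.15 at 6 hours, 24 hours and day 14 (limma adjusted p = 7.51e-14, 1.10e-13 and 4.51e-06). At day 14 it was 2.24-fold above non-irradiated mice and ranked 221 of 18193 genes by log2 change. The difference of -0.09 ± 0.15 between 24 and 6 hours did not pass the test, with a 95% interval of -0.40 to 0.23. It has a single probe set, so no second one could be set beside it.

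**Figure D2:**
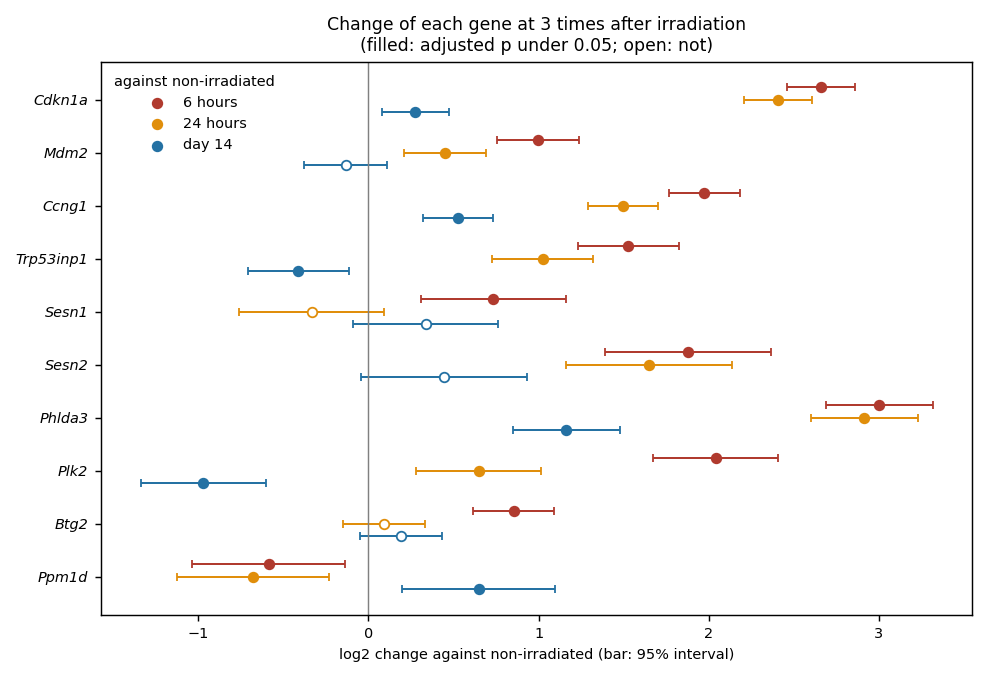
Log2 change of each gene (horizontal axis) at 6 hours, 24 hours and day 14 against non-irradiated mice, with 95% intervals from the limma fit. Filled points passed an adjusted p of 0.05 and open points did not. Phlda3 and Cdkn1a stay near 3 and 2.5 at 6 and 24 hours, Plk2 crosses from 2.04 to -0.97, and Ppm1d lies left of 0 at 6 and 24 hours and right of it at day 14.

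Sesn1 and Sesn2 encode sestrins, stress proteins that inhibit mTORC1 signalling and protect against oxidants. Sesn2 read 783, 954, 1531, 1269 and 834 at 6 hours, against 305, 209, 437, 209 and 304 without irradiation. It read 831, 827, 870.2, 1028 and 886 at 24 hours and 465, 340.2, 519, 419 and 242 at day 14. Both early groups stood above the non-irradiated arrays, while day 14 overlapped them. Its log2 change was 1.88 ± 0.24 at 6 hours and 1.65 ± 0.24 at 24 hours (limma adjusted p = 7.86e-07 and 4.51e-06), and 0.45 ± 0.24 at day 14 did not pass (adjusted p = 0.18). Its other probe set gave 1.78, 1.18 and -0.09 at the 3 times.

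Sesn1 did not follow its relative. It read 1488, 1358, 1378, 1434 and 2169 at 6 hours, against 666, 721, 1259, 955 and 1177 without irradiation. It read 960.4, 669, 665, 804 and 622 at 24 hours and 987, 1040.4, 1191, 944 and 1898 at day 14. The rise at 6 hours was 0.73 ± 0.21 (limma adjusted p = 8.31e-03), the smallest of the 9, and the values at 24 hours (-0.33 ± 0.21) and day 14 (0.34 ± 0.21) did not pass. Of the other 3 probe sets none was called at 6 hours, with log2 changes of 0.41, -0.07 and -0.10. The rise between day 14 and 24 hours, 0.67 ± 0.21 (limma adjusted p = 0.012), rested on day 14 replicate 5 and was 0.50 without it (adjusted p = 0.054). Another probe set also gave a rise there, 0.66 ± 0.25 (adjusted p = 0.045). Its fall between 24 and 6 hours was called by 3 of the 4 probe sets (-1.07, -0.86 and -2.32), whereas its rise at 6 hours was called by 1.

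Trp53inp1 is a nuclear protein that strengthens p53's own activity and takes part in autophagy. It read 6642, 6573, 8102, 6747 and 6214 at 6 hours, against 1732, 2404, 2673, 2024 and 3308 without irradiation. It read 5352, 4393, 5147, 4714 and 4556 at 24 hours and 1318, 2271, 1829, 1939 and 1688 at day 14. Groups at 6 and 24 hours lay wholly above the non-irradiated one and did not overlap each other. Log2 changes were 1.53 ± 0.14 and 1.02 ± 0.14 (limma adjusted p = 6.68e-09 and 3.26e-06), and the second probe set gave 1.87 and 1.22. At day 14 the gene was called lower, by -0.41 ± 0.14 with overlapping groups (limma adjusted p = 0.041). That call was lost when any of day 14 replicates 1, 3 and 5 or non-irradiated replicates 2, 3 and 5 was left out (-0.42 to -0.29, adjusted p = 0.063 to 0.14), and centring arrays on their medians turned it to 0.49.

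Mdm2, the ligase that ends the p53 response, read 3846, 4045, 3429, 4763 and 3654 at 6 hours, against 1538, 1863, 2013, 2028 and 2508 without irradiation. It read 2598, 3108, 2751, 2506 and 2504 at 24 hours and 1756, 1864, 1739, 1920.0 and 1683 at day 14. The 6 hour arrays stood above all others, and of the 24 hour arrays replicates 4 and 5 lay just under the highest non-irradiated one and the rest above it. Log2 changes were 1.00 ± 0.12 at 6 hours, 0.45 ± 0.12 at 24 hours and -0.13 ± 0.12 at day 14 (limma adjusted p = 2.88e-07, 4.43e-03 and 0.44). The other probe sets differed from it and from each other: one gave 0.92, 0.88 and 0.34, and the other gave 0.31, -0.56 and -2.22. The last of these read 308, 331, 339, 392 and 263 at day 14, against 1313, 2044, 1615, 1322 and 1366 without irradiation, with no overlap (limma adjusted p = 5.06e-10 among all probe sets). Which transcripts of Mdm2 each probe set detects is not given in the sources used here, so the level at day 14 depends on the probe set.

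Ppm1d encodes Wip1, a phosphatase that switches off p53 and the damage kinases. It was the only member not to rise early: it read 2512, 2089.8, 944, 2849 and 970.0 at 6 hours, against 2494, 2405, 2735, 2425 and 2634 without irradiation. It read 1987, 1514, 1355, 1499 and 1633 at 24 hours and 4148, 3938, 4225, 3802 and 3778 at day 14. The 6 hour arrays were split, with replicates 3 and 5 far under the others, the 24 hour arrays all lay under the non-irradiated ones, and the day 14 arrays all lay above them. Log2 changes were -0.59 ± 0.22 at 6 hours, -0.68 ± 0.22 at 24 hours and 0.65 ± 0.22 at day 14 (limma adjusted p = 0.046, 0.019 and 0.034). The rise of 1.33 ± 0.22 between day 14 and 24 hours was firmer (limma adjusted p = 2.09e-05).

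The calls on Ppm1d against non-irradiated mice depended on single arrays. At 6 hours the call was lost without 6 hour replicate 3 or 5 (-0.38 and -0.39) or without any 1 of the 5 non-irradiated arrays (-0.61 to -0.56), at 24 hours without 24 hour replicate 3 (-0.62), and at day 14 without any of day 14 replicates 1 to 4 or non-irradiated replicates 1, 2, 4 and 5 (0.63 to 0.66), with limma adjusted p-values of 0.0504 to 0.165. The second probe set read 298, 460.2, 383, 282 and 281 at 6 hours, against 265, 263, 272, 222 and 255 without irradiation, a change of 0.39 ± 0.23 that did not pass, and it gave -0.51 at 24 hours and 1.01 at day 14. On the 6 hour arrays the sum of erythroid markers was 7792, 5496, 5236, 9491 and 5824 on replicates 1 to 5. The 2 arrays with most of it, replicates 1 and 4, were the 2 with most Ppm1d, but the order differed between replicates 2 and 5. The same 2 arrays had the highest sums of B-lineage markers (3363.5 and 2760.8). With group means removed, the brightest probe set correlated at 0.75 with erythroid and 0.66 with B-lineage markers over all 20 arrays. The other marker lists gave -0.60 (T and NK) to 0.17 (monocyte and macrophage). The part of these markers in the result was not tested.

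**Figure D3:**
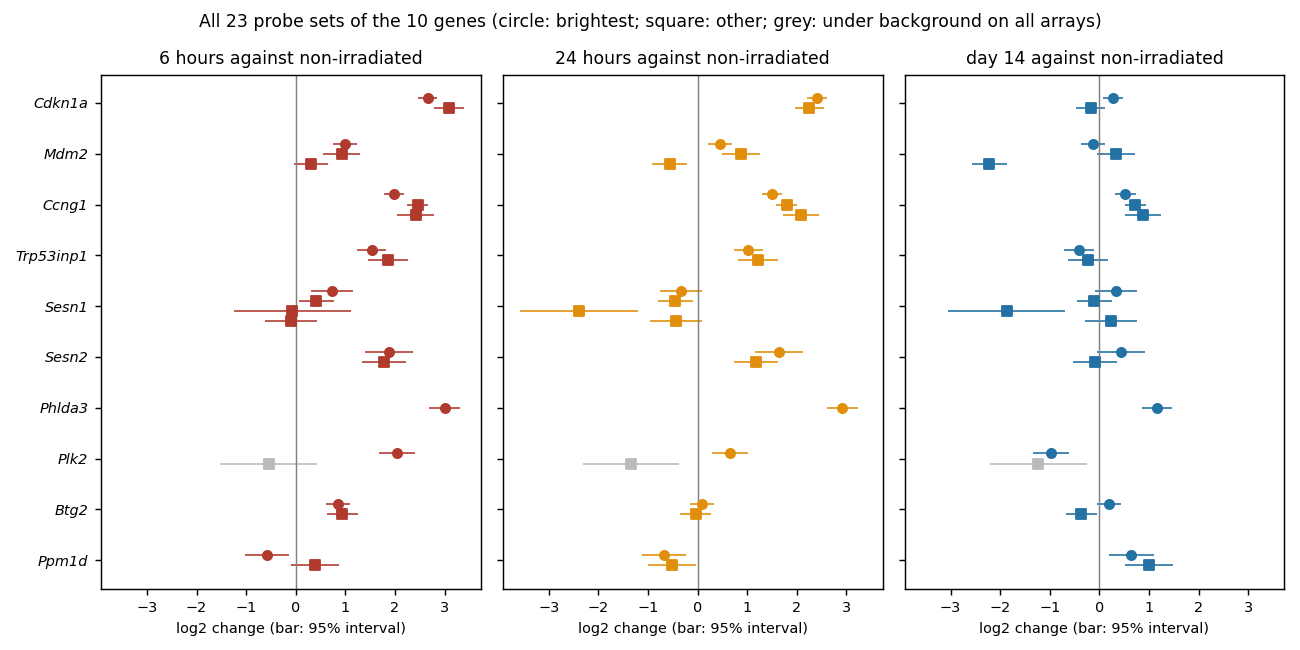
Log2 change (horizontal axis, with 95% intervals) of all 23 probe sets of the 10 genes at 6 hours, 24 hours and day 14 against non-irradiated mice. Circles are the brightest probe set of a gene, squares are the others, and grey marks the probe set of Plk2 that was under background on every array. Probe sets of Cdkn1a, Ccng1, Trp53inp1 and Sesn2 all lie right of 0 at 6 and 24 hours, with those of Ccng1 at 1.97 to 2.46 at 6 hours. Those of Mdm2 and Sesn1 spread apart at 24 hours and at day 14.

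The times were also compared directly. Between 24 and 6 hours 0 members rose and 6 fell (13.7% and 10.1% of all genes). The 6 were Plk2, Sesn1, Btg2, Mdm2, Trp53inp1 and Ccng1, with log2 changes of -1.39 to -0.48, whereas Cdkn1a, Phlda3, Sesn2 and Ppm1d lay between -0.25 and -0.09 and did not pass. Of these 4, Phlda3 has no other probe set, and those of Cdkn1a, Sesn2 and Ppm1d were called lower, by -0.83, -0.59 and -0.90 (limma adjusted p = 1.07e-04, 0.049 and 6.27e-03), so which members fell between these times depended on the probe set. Between day 14 and 24 hours 2 rose, Ppm1d and Sesn1, and 7 fell (15.2% and 21.7% of all genes). Between day 14 and 6 hours 1 rose and 8 fell (19.8% and 25% of all genes), with Ppm1d the gene that rose. The groups did not overlap in 0 members above and 6 below between 24 and 6 hours (7.99% and 6.61% of all genes), 1 and 7 between day 14 and 24 hours (15.7% and 20.6%), and 1 and 8 between day 14 and 6 hours (13.1% and 15.1%). These comparisons share arrays, and the values of a gene in them are not independent.

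Endothelial markers rose together with the members at 6 and 24 hours. Of the 16 endothelial markers 15 rose at 6 hours (12.9% of all genes), 9 at 24 hours (15.7%) and 1 at day 14 (9.47%), when 9 fell (13%). The markers' median log2 change was 1.76, 0.72 and -0.65. Cdh5, given outside the rule for named genes because it encodes VE-cadherin, the protein in the cells' label, averaged 8954 at 6 hours, 4891 at 24 hours and 1293 at day 14, and 3186 without irradiation. When each array was expressed relative to the mean of its 16 endothelial markers, a scaling added after seeing these values, 3 members were still higher at 6 hours: Phlda3 by 1.34 ± 0.16, Cdkn1a by 0.99 ± 0.11 and Ccng1 by 0.31 ± 0.11. Plk2, Sesn2 and Trp53inp1 were then at 0.37, 0.21 and -0.14 and passed in neither direction, and Btg2, Mdm2, Sesn1 and Ppm1d were lower, by -0.81, -0.67, -0.93 and -2.25. On that scale the median of all genes was -1.69, with 98 of 18193 higher and 15020 lower. Of the 10 members Ppm1d alone lay under that median.

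The same scale moved every member down at 24 hours and up at day 14. At 24 hours it left 5 of them higher, Phlda3 (2.28), Cdkn1a (1.77), Sesn2 (1.01), Ccng1 (0.86) and Trp53inp1 (0.39), and 3 lower. Of all 18193 genes 957 were then higher and 7405 lower, with a median of -0.71. At day 14 it left 8 higher, with Phlda3 at 1.85, Ppm1d at 1.33, Ccng1 at 1.21 and Cdkn1a at 0.96, and 0 lower. All genes then had a median of 0.50, with 6789 higher and 676 lower, so the scale itself moved most genes up. Phlda3, Cdkn1a and Ccng1 were the members called higher at all 3 times on both scales. At day 14 the endothelial scale raises every gene alike (marker mean -0.68), so it adds no check to members already called higher there. Without that scale the day 14 call of Cdkn1a was lost in 6 of 10 fits that left out 1 array, and its other probe set gave -0.17. Megakaryocyte markers moved with the endothelial ones, with 6 of 6 higher at 6 hours and 5 at 24 hours, and their sum of 27450 to 35880 at 6 hours stood above the 10520 to 11650 of non-irradiated arrays. At 6 hours 4 of 8 stromal and osteoblast markers also rose and 0 fell (12.9% and 14.5% of all genes). Of 7 monocyte and macrophage markers 2 rose and 1 fell there, with a sum of 4932 to 5857 against 3374 to 3950 without irradiation. The part of these other cells in the members' changes was not tested.

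**Figure D4:**
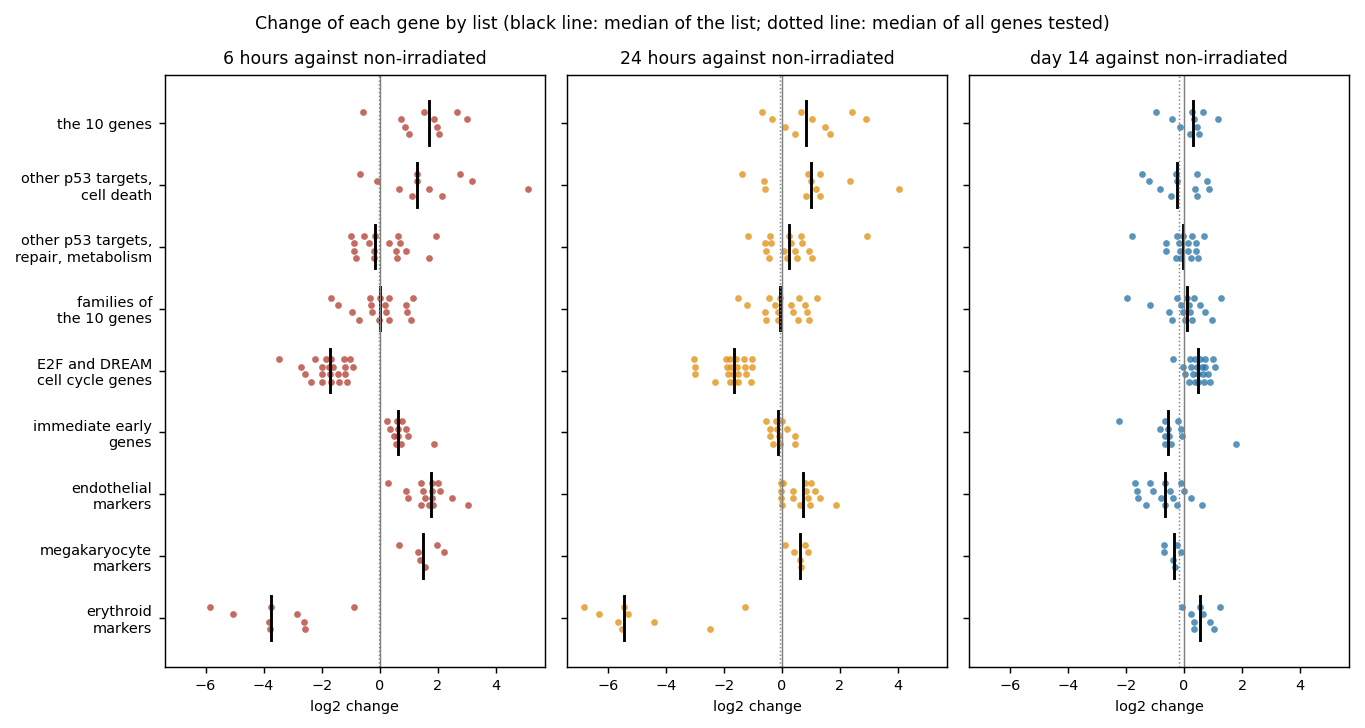
Log2 change (horizontal axis) of each gene in 9 lists at 6 hours, 24 hours and day 14 against non-irradiated mice. Each point is a gene, the black line is the median of its list, and the dotted line is the median of all 18193 genes. The medians of the 10 genes (1.70 and 0.84) and of the death genes (1.28 and 1.02) lie right of 0 at 6 and 24 hours, with single genes left of it, and the medians of the cell cycle genes (-1.70 and -1.66) lie left of it.

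Of the regulators of p53, 14 of 15 were measured, and Trp53 itself was not analysed here. At 6 hours 1 rose and 5 fell (12.9% and 14.5% of all genes). At 24 hours 0 rose and 6 fell (15.7% and 13.8%), and at day 14 0 rose and 1 fell (9.47% and 13%). Trp53bp1, a sensor of DNA breaks, averaged 11540 ± 1596 at 6 hours and 5582 ± 893 without irradiation (SD, n = 5 each), a log2 rise of 1.05 ± 0.12. The checkpoint kinase gene Chek1 fell to 407 ± 164 at 6 hours and 214 ± 65.4 at 24 hours, against 1178 ± 139 without irradiation. Mdm4, the partner of Mdm2 in holding p53 down, averaged 1305 ± 140 at day 14 and 2964 ± 184 without irradiation, a log2 change of -1.19 ± 0.12 (limma adjusted p = 8.57e-08). Mdm4 was thus called lower at day 14, when the brightest Mdm2 probe set was not. Over the alternative settings the regulators called lower at day 14 numbered 0 to 3, so the Mdm4 call did not hold in all of them.

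Other p53 targets that promote cell death rose alongside the 10 genes at 6 and 24 hours, 7 of 11 at each time, with 1 and 2 lower. At day 14 2 were higher and 1 lower. Of all genes 12.9%, 15.7% and 9.47% rose and 14.5%, 13.8% and 13% fell at the 3 times, so the small day 14 counts lay near those shares. The median log2 change of the death genes was 1.28, 1.02 and -0.25. Eda2r, a death domain receptor, averaged 1019 ± 478 at 6 hours, against 37.6 ± 37.6 without irradiation, where only 2 of 5 arrays were above background, and 467 ± 113 at 24 hours. Zmat3, a zinc finger protein that binds RNA, rose by 3.17 ± 0.30 at 6 hours and 2.36 ± 0.30 at 24 hours, and Tnfrsf10b, a receptor for the death ligand TRAIL, by 2.77 ± 0.31 at 6 hours. Fas, another death receptor, averaged 40.4 ± 9.59 at day 14 and 116 ± 51.1 without irradiation, a log2 change of -1.45 ± 0.32 (limma adjusted p = 2.14e-03). Death genes were thus called higher in most cases at the same 2 times as the arrest genes, and the design holds no time before 6 hours.

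Targets in repair, metabolism and secretion behaved less uniformly, with 6 of 17 higher and 3 lower at 6 hours (12.9% and 14.5% of all genes). At 24 hours 4 were higher and 3 lower (15.7% and 13.8%), and at day 14 1 and 1 (9.47% and 13%). Ak1, an adenylate kinase, averaged 1200 ± 157 at 6 hours, 2772 ± 111 at 24 hours and 491 ± 107 at day 14, and 367 ± 62.8 without irradiation. Between 24 and 6 hours it rose by 1.22 ± 0.16 (limma adjusted p = 2.83e-06). Cpt1c, of the carnitine palmitoyltransferase family, rose by 1.93 ± 0.22 at 6 hours (limma adjusted p = 1.56e-07). Ddb2, which recognises ultraviolet damage in DNA, was called only at day 14, by -0.63 ± 0.17 with overlapping groups (limma adjusted p = 9.34e-03).

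Other members of the 10 genes' protein families, Mdm4 among them, were called in both directions. Of 17 measured, 3 rose and 3 fell at 6 hours (12.9% and 14.5% of all genes), and 5 rose and 4 fell at 24 hours (15.7% and 13.8%). At day 14 2 rose and 4 fell (9.47% and 13%). The medians were 0.00, -0.07 and 0.09, and these small counts were not tested against the shares of all genes. Phlda1, a relative of Phlda3, averaged 6966 ± 536 at 6 hours, 4734 ± 496 at 24 hours and 6165 ± 321 at day 14, and 3251 ± 723 without irradiation. Cdkn1c, which encodes the inhibitor p57, rose by 1.21 ± 0.29 at 24 hours (limma adjusted p = 1.94e-03). The polo-like kinases Plk1 and Plk4 fell by 1.43 ± 0.30 and 1.68 ± 0.22 at 6 hours, opposite to Plk2. Plk3 averaged 83.5 ± 12.9 at day 14 and 332 ± 71.3 without irradiation, a log2 change of -1.97 ± 0.25, in the same direction as Plk2 at that time.

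Cell cycle genes under E2F and the DREAM repressor complex, through which p21 is known to act, moved together. All 22 measured fell at 6 hours and at 24 hours (14.5% and 13.8% of all genes). At day 14 12 rose, 1 fell and 9 did not pass, where 9.47% of all genes rose and 13% fell. The medians of the list were -1.70, -1.66 and 0.48. Cdc6, which loads the replicative helicase, averaged 312 ± 88.1 at 6 hours, 425 ± 79.4 at 24 hours and 4753 ± 164 at day 14, and 3400 ± 82.3 without irradiation. Birc5, a subunit of the mitotic passenger complex, fell by 2.59 ± 0.14 at 6 hours and rose by 0.89 ± 0.14 at day 14. Erythroid markers, of cells that divide fast in marrow, fell in 9 of 9 cases at 6 and at 24 hours by medians of -3.74 and -5.46, and their part in the fall of the cycle genes was not tested.

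Targets of ATF4, the transcription factor that raises Sesn2 in amino acid and endoplasmic reticulum stress, were examined because Sesn2 answers to both factors. Of 12 measured, 3 rose and 3 fell at 6 hours (12.9% and 14.5% of all genes), and 2 rose and 3 fell at 24 hours (15.7% and 13.8%). At day 14 3 rose and 1 fell (9.47% and 13%). Asns, which makes asparagine, averaged 618 at 6 hours, 708 at 24 hours and 5403 at day 14, and 3275 without irradiation. Sesn2 was higher at 6 and 24 hours than without irradiation, and Asns was lower. Vldlr, a lipoprotein receptor, rose by 1.15 ± 0.32 and 1.07 ± 0.32 at those times. The part of ATF4 in the rise of Sesn2 was not tested.

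Across the 20 arrays the 10 genes fell into patterns that can be described by the genes most like each. Pearson correlation of log2 signal over all 20 arrays, among 10558 genes of sufficient signal, was used, and since the 4 group means carry most of it, it is given without a p. The genes most like Cdkn1a were Pros1, Tubb6 and Col11a1 (r = 0.987, 0.984 and 0.984), those most like Phlda3 were Sdc4, Ptx3 and Nid1 (0.983, 0.979 and 0.971), and those most like Ccng1 were Dcxr, Fkbp1a and the p53 target Ei24 (0.970, 0.967 and 0.967). Plk2 was most like Ctla2a, Itgb3 and Timp3 (0.979, 0.975 and 0.972), and Btg2 was most like the tight junction gene Cldn5 (0.933). For Mdm2 they were Akap12, Tnfrsf10b and Eng, for Trp53inp1 Exoc3l2, Tob1 and Lasp1, and for Sesn2 Tcn2, Eva1b and Ephx1, with r between 0.935 and 0.964. Sesn1 had no close neighbour, with Nol6 first at 0.857. Ppm1d was most like Nfe2, Ssx2ip and Umps (0.948, 0.945 and 0.930). Between members the highest correlations were those among Cdkn1a, Ccng1 and Phlda3 (0.959 to 0.962), and Ppm1d correlated below 0 with 8 of the other 9, down to -0.75 with Trp53inp1.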

How the data were processed

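RNA was isolated with the RNeasy micro kit, amplified with NuGEN Ovation V2 and hybridised to Affymetrix arrays, per the labels' protocols, and the submitters' processing notes name Expression Console and Transcriptome Analysis Console. The deposited values are linear intensity per probe set, and in the deposited files each array has a trimmed mean of 500 after 2% is trimmed, while the summarization method is not given in the sources used here. From these, log2(intensity + 1) was taken, and of the 45101 probe sets the 34945 with 1 gene symbol were kept (932 had several and 9160 none). The brightest probe set by mean log2 stood for each of 18193 genes. Genes were tested in 1 limma model of 4 groups (limma 3.58.1, R 4.3.3, empirical Bayes with an intensity trend), with Benjamini-Hochberg adjustment over all genes and a threshold of 0.05. Figures used Python 3.11.15 and matplotlib 3.10.9. Background was the 95th percentile of 27 bacterial control probe sets on each array. The fit was tested on simulated data. Each list other than the 10 members named the 3 called genes with the largest change per time, or, with under 2 calls, the gene of lowest p, and the list genes given are taken from those, apart from Cdh5. The members and lists were chosen with earlier results of these data known. Alternatives were quantile and median scaling, other probe sets, a filter on dim genes, a pseudocount of 16, other spread models and thresholds, a replicate block and leaving out each array. The number of arrays limits the precision. Same-numbered arrays did not deviate together (30 pairs, correlations of -0.07 to 0.05), so no pairing was used.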

Additional observations from a re-analysis of the deposited data

Results flagged for a closer look

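In 7 of 40 groups of 5 arrays the highest or lowest array lay apart from the others by a Dixon gap ratio above 0.71, a test that chance passes in about 5% of groups. They were Cdkn1a at 6 hours (replicate 2, 5236), Trp53inp1 at 6 hours (replicate 3, 8102), Sesn1 at 6 hours and at day 14 (replicate 5 of each, 2169 and 1898), Plk2 at 24 hours and without irradiation (replicate 5 of each, 721 and 809.7) and Btg2 at 24 hours (replicate 3, 1377).

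The change after irradiation differed between times in 24 of 30 direct comparisons of the members, by limma at an adjusted p of 0.05. Of all genes 13.7% rose and 10.1% fell between 24 and 6 hours. Between day 14 and 24 hours 15.2% rose and 21.7% fell, and between day 14 and 6 hours 19.8% rose and 25% fell. Between 24 and 6 hours the log2 differences were -0.55 for Mdm2, -0.48 for Ccng1, -0.50 for Trp53inp1, -1.07 for Sesn1, -1.39 for Plk2 and -0.76 for Btg2. Between day 14 and 24 hours they were -2.13 for Cdkn1a, -0.58 for Mdm2, -0.97 for Ccng1, -1.44 for Trp53inp1, 0.67 for Sesn1, -1.20 for Sesn2, -1.75 for Phlda3, -1.62 for Plk2 and 1.33 for Ppm1d. Between day 14 and 6 hours they were -2.38 for Cdkn1a, -1.13 for Mdm2, -1.45 for Ccng1, -1.94 for Trp53inp1, -1.43 for Sesn2, -1.84 for Phlda3, -3.01 for Plk2, -0.66 for Btg2 and 1.23 for Ppm1d.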

How the results depend on the processing

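Of 1368 values of single members under 45 settings, 1231 kept their direction and side of the threshold, 71 lost the call, 27 gained one and 39 changed sign; where not stated, the cause was not tested. The count of 9 members higher at 6 hours fell to 3 relative to the endothelial markers, with 4 lower (98 higher and 15020 lower of all 18193 genes). The 1 member lower at 6 hours became 0 with median centring, the mean of probe sets, the second-brightest probe set, no intensity trend, only the 2 groups compared, a threshold of 0.01 or a minimum of 2-fold. At 24 hours the 1 lower became 0 with median centring, no trend, 0.01 or 2-fold, 2 with the mean of probe sets and 3 relative to the endothelial markers. At day 14 the 4 higher became 9 with median centring, 8 relative to the endothelial markers, 2 with no trend or 0.01 and 1 with 2-fold. Of all 18193 genes 1723 were higher at day 14 as reported, 8210 with median centring and 6789 relative to the endothelial markers. The 2 members lower at day 14 became 0 with median centring, 2-fold, the second-brightest probe set or relative to the endothelial markers, and 1 with no trend or 0.01. The 6 lower between 24 and 6 hours became 2 with 2-fold, and the 2 higher between day 14 and 24 hours became 1 with 0.01, 2-fold or the second-brightest probe set. Leaving out 1 array gave 9 higher and 0 to 1 lower at 6 hours, 7 and 0 to 1 at 24 hours, 2 to 3 and 1 to 2 at day 14, 0 and 6 to 7 between 24 and 6 hours, 1 to 2 and 7 between day 14 and 24 hours, and 1 and 8 to 9 between day 14 and 6 hours.

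The replicate block left 3 members higher at day 14, with Cdkn1a at an adjusted p of 0.060 by limma, and changed no other call; the arrays share only a number.

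Signs turned with median centring for Sesn1 at 24 hours (0.049), Mdm2 and Trp53inp1 at day 14 (0.76 and 0.49), Phlda3 and Ppm1d between 24 and 6 hours (0.044 and 0.042) and Sesn1 between day 14 and 6 hours (0.25). With the mean of probe sets they turned for Plk2 at 24 hours (-0.35), Btg2 and Sesn1 at day 14 (-0.085 and -0.35) and Btg2 between day 14 and 24 hours (-0.11). Without probe sets of shared sequence Sesn1 was -0.10 at 6 hours and 0.34 between day 14 and 6 hours. Ppm1d between 24 and 6 hours ranged from -0.30 to 0.10 when 1 array was left out, with 0.052 without 6 hour replicate 1. Relative to the endothelial markers, Btg2, Mdm2, Sesn1 and Trp53inp1 were -0.81, -0.67, -0.93 and -0.14 at 6 hours, Btg2 and Mdm2 were -0.54 and -0.19 at 24 hours, and Mdm2 and Trp53inp1 were 0.55 and 0.27 at day 14. By the probe set of highest linear mean, and by its other probe set, Cdkn1a was -0.17 at day 14. Other probe sets gave at 6 hours 0.39 for Ppm1d, -0.55 for Plk2 and -0.069 and -0.10 for Sesn1. At 24 hours they gave -0.035 for Btg2, -1.34 for Plk2 and -0.56 for Mdm2. At day 14 they gave -0.36 for Btg2, 0.34 for Mdm2, -0.10 and -1.87 for Sesn1 and -0.087 for Sesn2. Between day 14 and 24 hours they gave -0.33 for Btg2 and 0.11 for Plk2, and between day 14 and 6 hours 0.34 for Sesn1. The Plk2 values come from a probe set under background.

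Over the settings the cell cycle list kept 21 to 22 genes lower at 6 and 24 hours and had 1 to 21 higher at day 14, and the death list had 7 to 8 higher at 6 hours, 6 to 8 at 24 hours and 0 to 6 at day 14. Immediate early genes numbered 1 to 12 higher at 6 hours, and repair genes 2 to 6, 1 to 8 and 0 to 12 higher at the 3 times. At day 14 the family list had 0 to 14 higher, the p53 regulators 0 to 9 and the ATF4 targets 0 to 8.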
